A study of Mus musculus with 23 samples.

Results

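Livers of 6 female mice lacking P2ry13 were compared with livers of 6 female wild-type mice, the 12 arrays titled F among the 23 arrays of the series. The members were chosen by the sample titles alone: knockout (KO) F-1 to F-6 against wild-type (WT) F-1 to F-6. The remaining 11 arrays, from 5 male WT and 6 male KO livers, entered the model as further groups and gave the values for males set beside the female ones. The question was how ablating the gene changes liver transcripts. P2ry13 is called GPR86 in the labels. The sources used here give no strain, age, diet or batch, and describe neither the deleted segment nor the genetic background beside it. Nothing in these sources ties a replicate number in WT to the same number in KO.

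P2ry13 encodes P2Y13, a receptor of the P2Y family that couples to inhibitory G proteins and is activated by ADP outside the cell. In hepatocytes, ADP made at the cell surface by an ATP synthase acts on P2Y13, which increases the uptake of whole HDL particles, a step in the return of cholesterol to bile. Mouse liver also differs strongly between the sexes: the pulsatile growth hormone secretion of males and the more continuous secretion of females act through the transcription factor STAT5 and set the levels of many steroid hydroxylases, sulfotransferases and carriers. A gene is called male-biased or female-biased here by what is known of mouse liver.

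Each array gave 1 intensity per probe set for 38385 probe sets, and values below are log2 of that intensity unless stated. Array medians lay between 19.5 and 21.1 linear units, and the correlation between any 2 female arrays lay between 0.990 and 0.995 over all probe sets. A named probe set is one with a single gene symbol; there were 24478, for 19147 symbols. Probe sets of Y-linked genes, which female liver cannot express, read 2.53 to 3.69 on the female arrays, and this range is called background. Xist lay between 8.42 and 9.78 on the female arrays and between 4.14 and 5.22 on the male ones. Differences were tested with limma, and "adjusted p" is its Benjamini-Hochberg value over all 38385 probe sets, with 0.05 as the threshold. The number of arrays limits the precision of each value. A limma p-value sets a difference against the spread of livers within groups, estimated from all 23 arrays with variance borrowed across probe sets.

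The targeted gene was lower in KO livers. P2ry13 had its lowest, median and highest values at 6.03, 6.34 and 6.42 in female WT and at 5.06, 5.17 and 5.22 in female KO, so the groups did not overlap. It fell by 1.12 (SE 0.09, limma, adjusted p = 6.07e-09). The sources used here do not place its probe set relative to the deletion. Around the receptor, 22 genes of its pathway and of ADP turnover were measured: sister receptors, inhibitory G protein subunits, downstream signalling and the ectoenzymes that make or break down nucleotides. None passed; 15 read higher and 7 lower, with a median difference of 0.10. Nt5e, the ectoenzyme that turns AMP into adenosine, read 0.25 higher (SE 0.12, limma, adjusted p = 0.848), and Enpp3, an ectonucleotide pyrophosphatase, read 0.31 lower (limma, log2 difference -0.31, adjusted p = 0.849). P2ry14, a receptor for UDP-sugars that neighbours P2ry13, read 0.22 higher (limma, adjusted p = 0.854). Scarb1, the HDL receptor SR-BI, read 0.18 higher in females and 0.19 higher in males (limma, adjusted p = 0.854 and 0.812). The KO and WT values of all 4 genes overlapped.

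Over the whole array few probe sets passed in females. Limma called 21 of 38385, or 0.0547% (9 higher, 0.0234%, and 12 lower, 0.0313%), and 5.87% had an unadjusted p under 0.05. With array medians made equal the split was 11 higher and 9 lower. The 21 stand for 18 named genes, 8 higher and 10 lower, and 2 probe sets unnamed here. Of the 18, 15 lie on chromosome 3, where P2ry13 lies, and 3 lie elsewhere: Sult2a1 and Sult2a2 on chromosome 7 and Cyp2d9 on chromosome 15. By location, 1.33% of the 1202 probe sets placed on chromosome 3 passed and 0.013% of the 23029 placed on other chromosomes. Adjusted over the 37183 probe sets not placed on chromosome 3 alone, 4 passed (0.0108%). The design text names an analysis of variance over the groups, at an unadjusted p under 0.05 with a change over 20%. At these thresholds, a plain analysis of variance fitted here to the female arrays alone gave 397 (1.03%), 239 of them higher (0.623%). In bulk liver, fewer cells of a type and less RNA per cell cannot be told apart.

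The genes that rose away from chromosome 3 were both hydroxysteroid sulfotransferases, cytosolic enzymes that attach sulfate to steroids and bile acids and are expressed mainly in female liver. In order of replicate number, Sult2a1 read 6.67, 4.14, 5.99, 6.89, 5.65 and 6.28 in the WT females. The KO females read 9.68, 9.40, 9.75, 8.82, 9.54 and 9.08. Every KO liver was above every WT liver, and WT replicate 2 was the lowest of all. Sult2a1 rose by 3.44 (SE 0.28, 10.9-fold, limma, adjusted p = 1.27e-08). Sult2a2 read 3.90, 3.52, 3.89, 4.17, 3.85 and 3.82 in female WT, at or just above background, and 6.57, 9.95, 9.88, 9.83, 7.28 and 9.66 in female KO. The KO livers fell into 4 between 9.66 and 9.95 and 2 lower ones, replicates 1 and 5, both still above every WT liver. Sult2a2 rose by 5.00 (SE 0.39, limma, adjusted p = 6.07e-09), and by 5.97 without KO replicates 1 and 5, a choice made after the data were seen. KO replicates 1 and 5 were not low for Sult2a1. Close paralogs can share signal between probe sets, so the split between Sult2a1 and Sult2a2 is uncertain.

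Cyp2d9, the gene off chromosome 3 that fell, encodes a male-biased cytochrome P450 that hydroxylates testosterone. It had its lowest, median and highest values at 10.69, 10.75 and 10.94 in female WT and at 9.49, 9.98 and 10.32 in female KO, with no overlap. It fell by 0.80 (SE 0.10, 1.74-fold, limma, adjusted p = 2.42e-05). Male livers of both genotypes lay between 13.66 and 13.87. The Cyp2d family has near-identical members, so this value may hold signal of a paralog. In a plain analysis of variance on female livers, which borrows no variance across probe sets, Sult2a1, Sult2a2 and Cyp2d9 had adjusted p = 0.0504, 0.0504 and 0.261. In limma each of the 3 passed whichever 1 of the 12 female arrays was left out.

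A pair of sex-biased genes on chromosome 3, where P2ry13 lies, also passed. Any part of the DNA beside the deleted segment in their differences was not tested. Hsd3b5, a male-biased member of the 3-beta-hydroxysteroid dehydrogenase family that reduces steroids, had its lowest, median and highest values at 7.74, 9.53 and 10.09 in female WT and at 4.86, 5.23 and 6.48 in female KO. It fell by 3.73 (SE 0.31, 13.3-fold, limma, adjusted p = 1.7e-08). Hao2, a peroxisomal hydroxyacid oxidase with a female bias in mouse liver, had 5.25, 6.44 and 8.23 in female WT and 8.67, 9.16 and 9.51 in female KO. It rose by 2.64 (SE 0.30, 6.21-fold, limma, adjusted p = 1.14e-05). The groups did not overlap for either gene, and WT varied more than KO for Hao2, with SDs of 1.13 and 0.31. In the plain analysis of variance their adjusted p was 0.0545 and 0.392.

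**Figure D1:**
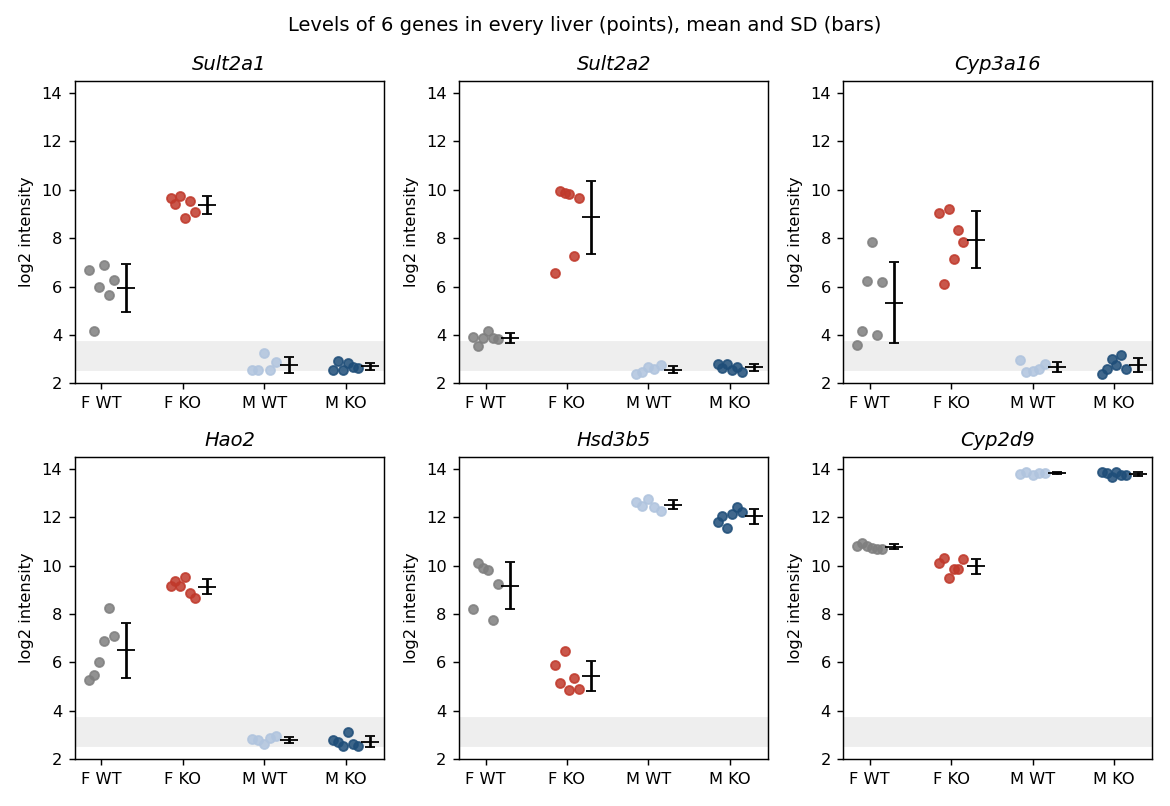
Log2 intensity of 6 genes in every liver, by group (F female, M male), as points, with the mean and SD of the group as bars beside them; the grey band is the background of the Y-linked probe sets, 2.53 to 3.69. The 6 female KO livers lie apart from the 6 female WT livers for every gene except Cyp3a16, and male KO and male WT livers overlap for all 6.

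Of the 5 sex-biased genes that passed, 3 have an upstream sequence in the RefSeq table of GRCm38.p6. The 250 bases before the annotated start are shown 5′ to 3′ on the gene's strand, to set the DNA in front of a gene that rose beside that of genes that fell in the same livers.
Hao2 (rose; chr3:98893231-98893480, minus strand): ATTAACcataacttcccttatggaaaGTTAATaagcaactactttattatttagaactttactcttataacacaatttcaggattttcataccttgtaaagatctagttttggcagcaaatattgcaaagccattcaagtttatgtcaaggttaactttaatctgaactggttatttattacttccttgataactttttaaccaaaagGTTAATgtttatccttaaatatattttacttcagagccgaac
Hsd3b5 (fell; chr3:98645535-98645784, minus strand): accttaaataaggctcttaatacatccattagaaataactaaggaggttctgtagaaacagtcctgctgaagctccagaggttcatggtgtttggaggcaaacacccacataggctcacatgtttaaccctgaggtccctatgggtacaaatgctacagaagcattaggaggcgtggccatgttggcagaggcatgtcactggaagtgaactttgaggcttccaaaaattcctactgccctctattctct
Cyp2d9 (fell; chr15:82452127-82452376, plus strand): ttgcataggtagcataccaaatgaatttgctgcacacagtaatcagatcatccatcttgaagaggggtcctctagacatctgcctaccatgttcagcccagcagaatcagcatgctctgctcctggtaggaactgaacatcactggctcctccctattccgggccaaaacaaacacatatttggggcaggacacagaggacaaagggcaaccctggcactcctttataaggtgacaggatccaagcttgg
Capitals mark matches to GTTAAT, a core of sites of the liver factor HNF1, on either strand. The search covered both strands for GTTAAT, for TTCNNNGAA (a STAT5 site), for ATTGAT (a core of HNF6 sites) and for CAAAGTCCA (an HNF4 site). In all 32851 promoters of the same length, 6.43%, 7.02%, 6.72% and 0.384% hold these in that order. Hao2 holds 3 matches to GTTAAT, whose first bases lie at -250, -224 and -42 from the start, the first on the opposite strand. No other match occurred in the 3 windows, which says only that these letters are not there.

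The KO effect in females was set against that in males. Of the 18 genes, 16 had the same sign in males, 8 passed there too, against 0.0313% of all probe sets in males, and 10 did not. The female effect minus the male effect passed for 4 probe sets of the array, 0.0104%, and each was a sex-biased gene named above. The difference was 4.92 (SE 0.56) for Sult2a2, 3.50 (SE 0.40) for Sult2a1, -3.25 (SE 0.45) for Hsd3b5 and 2.72 (SE 0.44) for Hao2 (limma, adjusted p = 6.27e-05, 6.27e-05, 0.00116 and 0.0131). In males Sult2a1, Sult2a2 and Hao2 lay between 2.39 and 3.25 in both genotypes, within or below background, so no male effect was measurable for these 3. Their male values also enter the SEs given for these genes. The difference for Hao2 did not pass with an intensity trend and robust variance or with 16 added before log2. Hsd3b5 lay between 12.27 and 12.75 in male WT and between 11.55 and 12.44 in male KO, with a difference of -0.48 (limma, adjusted p = 0.864). For Cyp2d9 the difference of the effects was -0.77 (SE 0.14) and missed the threshold (limma, adjusted p = 0.0568); it passed with the trend, with a filter on dim probe sets, and without KO replicate 2, 3 or 6. Trim2, a ubiquitin ligase on chromosome 3, rose by 0.56 in females and read 0.07 higher in males (limma, adjusted p = 0.00136 and 0.942), and the difference of these effects did not pass (limma, adjusted p = 0.832).

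**Figure D2:**
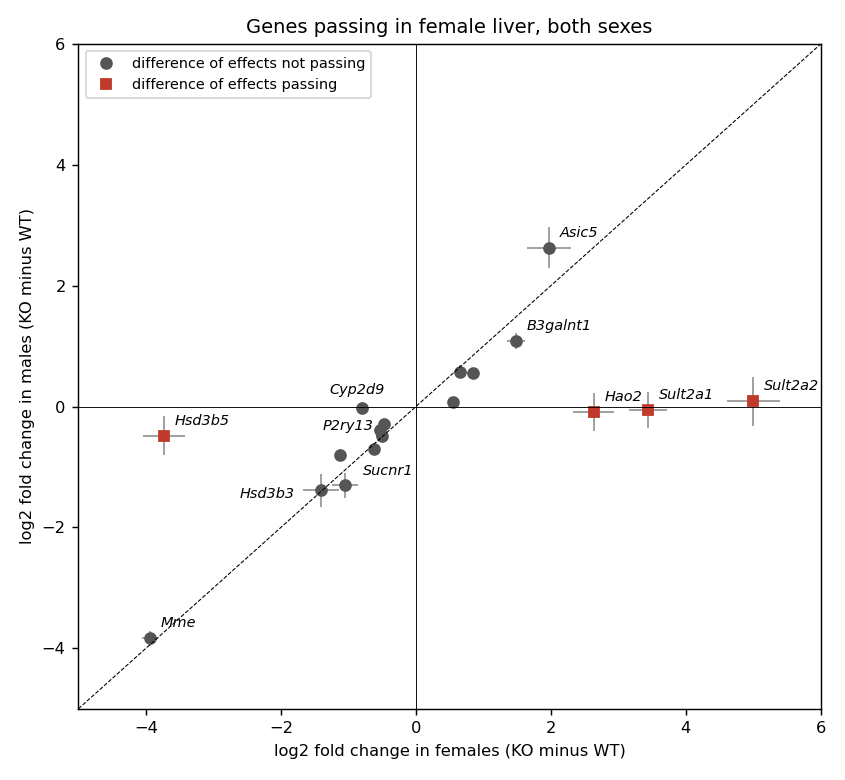
Log2 fold change, KO minus WT, in females (x axis) and males (y axis) for the 18 named genes that passed in females with SE bars; the dashed line marks equal effects. Sult2a1, Sult2a2, Hao2 and Hsd3b5, drawn as squares, passed the test of the difference of the effects; the other 14 did not.

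The wider set of female-biased liver genes read higher in female KO. All 24 measured members had positive differences, against 50.6% of all named genes, and 3 passed (Sult2a2, Sult2a1 and Hao2), against 0.0888% of named genes in either direction. Of the 24, 11 had an unadjusted p under 0.05 and were higher, against 3.34% of named genes. The list's median difference was 0.40, and 0.37 over the 23 members off chromosome 3, against 0.00 over all named genes. In males the same 24 had a median of -0.02, with 9 higher. The lists were chosen with earlier results of these data known, so these counts describe the members and are not independent evidence of a direction.

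Cyp3a16, a female-biased monooxygenase of the CYP3A family, came nearest to the threshold among the other members; it too has close paralogs. It had its lowest, median and highest values at 3.59, 5.18 and 7.83 in female WT and at 6.09, 8.09 and 9.22 in female KO, so the groups overlapped. Its difference was 2.61 (SE 0.52, limma, adjusted p = 0.0549). The WT livers spread over more than the KO livers did, with SDs of 1.67 and 1.19. Among fits leaving out 1 female array it passed only without WT replicate 4 or KO replicate 2. These were its highest WT liver and its lowest KO liver. Without WT replicate 4 its adjusted p was 0.000962 (limma). Leaving out the liver nearest to the other group enlarges a difference by construction. Such passes, here and below, are therefore no support for a difference. Slc16a5, a member of the monocarboxylate carrier family, read 0.67 higher (SE 0.17, limma, adjusted p = 0.396), and without WT replicate 4 its adjusted p was 0.00565.

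Male-biased genes leaned the other way. Of 16 measured, 12 read lower, against 49.4% of named genes. Hsd3b5 and Cyp2d9 fell and passed, against 0.0888% of named genes in either direction. Of the 14 members off chromosome 3, 1 passed. Of the 16, 8 had an unadjusted p under 0.05 and were lower, against 2.81% of named genes. The list's median difference was -0.235 in females and -0.09 in males. C6, a component of the complement membrane attack complex, had 7.69, 8.05 and 8.35 as its lowest, median and highest values in female WT and 7.32, 7.59 and 7.66 in female KO, without overlap, with a difference of -0.48 (SE 0.11, limma, adjusted p = 0.154). Among fits leaving out 1 female array it passed only without WT replicate 1, its lowest WT liver (limma, adjusted p = 0.0385). Susd4, a complement inhibitor, read 0.64 lower (limma, log2 difference -0.64, adjusted p = 0.285), and Slco1a1, an organic anion carrier, had a difference of -0.80 (SE 0.19, limma, adjusted p = 0.285). Slco1a1 was lowest in KO replicates 4 and 5, at 7.93 and 8.34, and the remaining KO livers lay at 9.13 or above. The 4 members that read higher, named after their values were seen, were Bcl6, a repressor of STAT5 target genes (1.04), Moxd1 (0.11), Elovl3 (0.05) and Cspg5 (0.04).

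Both lists followed sex in WT as their names say. They were chosen with earlier results of these data known, so this is no independent check of them. All 24 female-biased members were higher in female WT than in male WT, with a median gap of 2.26, and all 16 male-biased members were lower, with a median gap of -1.65. Between KO females and KO males the median gaps were 3.47 and -1.74. Such medians can fall on different members, so they do not give the size of a change. For female-biased members the median KO effect was 0.40 in females and -0.02 in males. The WT livers differed among themselves along the same genes. Relative to the WT mean, the median over the female-biased members was 0.42 in WT replicate 4, within the 0.24 to 0.57 of the KO livers, and -0.27 in WT replicates 1 and 2. For male-biased members the WT livers ranged from -0.27 to 0.21 and the KO livers from -0.46 to -0.13, and WT replicate 1, at -0.27, lay among the KO livers. The signalling genes upstream did not pass. Of 16 measured genes of growth hormone, STAT5 and androgen signalling, 8 read higher and 8 lower, with a median of 0.01. Stat5a read 0.22 higher, Socs2, the feedback inhibitor induced by STAT5, had a difference of -0.70 with an SE of 0.50, and Igfbp2 one of -0.39 (limma, adjusted p = 0.836, 0.899 and 0.818).

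**Figure D3:**
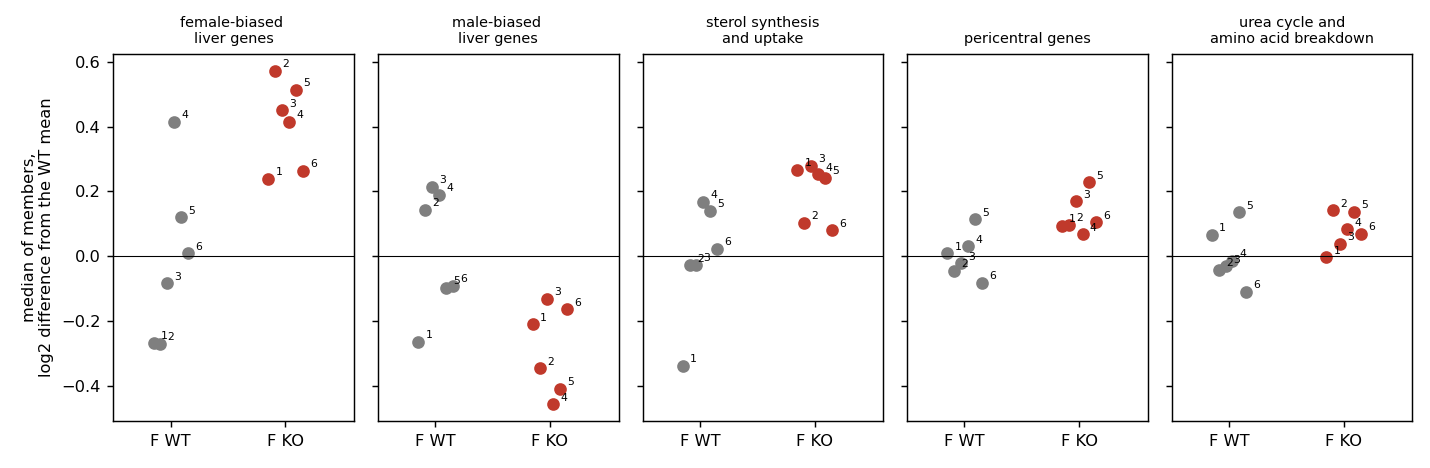
Median over the members of 5 gene lists in each female liver, as the log2 difference from the mean of the WT livers, with the replicate number beside each point. WT and KO livers overlap in each panel: female-biased members lie between -0.27 and 0.42 in WT and between 0.24 and 0.57 in KO, and sterol genes between -0.34 and 0.17 in WT and between 0.08 and 0.28 in KO.

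Away from the sex-biased lists, several genes off chromosome 3 lay close to the threshold without passing. Eci3, a peroxisomal enoyl-CoA isomerase, had its lowest, median and highest values at 5.75, 6.05 and 6.64 in female WT and at 6.59, 7.07 and 7.24 in female KO. It read 0.85 higher (SE 0.17, limma, adjusted p = 0.0592) and 0.09 lower in males (log2 difference -0.09). It passed without KO replicate 1, WT replicate 4 or WT replicate 5, at 0.0171 without WT replicate 4. Paqr3, a Golgi protein that anchors RAF, had 5.39, 5.51 and 5.69 in WT and 5.70, 5.88 and 5.97 in KO, without overlap, and read 0.34 higher (SE 0.07, limma, adjusted p = 0.0596). It passed without KO replicate 4 or WT replicate 1, at 0.0379 for the former, and with equal array medians.

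Sult3a2, a further sulfotransferase, had 3.41, 4.43 and 6.07 as its lowest, median and highest values in female WT and 4.74, 6.86 and 8.10 in female KO, an overlapping spread. It read 2.04 higher (SE 0.44, limma, adjusted p = 0.123), and passed without WT replicate 4, WT replicate 5 or KO replicate 6, at 0.00681 without the last. Itga6, a laminin-binding integrin chain, read 0.44 higher (limma, adjusted p = 0.113), and St3gal6, a sialyltransferase, 0.52 higher (limma, adjusted p = 0.221), both with all 6 KO livers above all 6 WT livers. That pattern was seen for 0.115% of named genes. Another probe set of Itga6 read 0.25 higher. Esrrg, an orphan nuclear receptor of energy metabolism, read 0.67 higher (limma, adjusted p = 0.163, and 0.00902 without WT replicate 5). Vldlr, the receptor for very low density lipoprotein, read 0.50 higher (limma, adjusted p = 0.257). Kirrel3 had an adjusted p of 0.0549 (limma), but both of its groups lay within background and another of its probe sets read 0.08 lower (log2 difference -0.08).

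Cholesterol supply is the pathway nearest to the receptor's known role in liver. Of 21 measured genes of sterol synthesis and uptake, 18 read higher in female KO, against 50.6% of named genes, and none passed; 8 had an unadjusted p under 0.05 and were higher, against 3.34% of named genes. Their median difference was 0.22 in females and -0.07 in males. Mvd, which makes isopentenyl diphosphate in the mevalonate pathway, ranged from 7.30 to 9.17 in WT and from 8.76 to 9.35 in KO, and read 0.65 higher (SE 0.22, limma, adjusted p = 0.735). Insig1, the sterol sensor that retains SREBP, read 0.34 higher, Hsd17b7, an enzyme of cholesterol synthesis, 0.37 higher, and Dhcr7, a late enzyme of that route, 0.26 higher (limma, adjusted p = 0.789, 0.832 and 0.818). WT replicate 1 was the lowest of the 12 livers for each of these 4 genes, and its list median was -0.34 from the WT mean, while the other WT livers lay between -0.03 and 0.17. Without WT replicate 1 the list's median difference was 0.14. The 3 members that read lower, named after their values were seen, were Insig2 (-0.05), Scap (-0.03) and Ebp (-0.02).

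Genes of HDL handling and lipoproteins did not pass. Of 12 measured genes of HDL uptake and cholesterol efflux, 10 read higher, with a median of 0.06. Lipg, endothelial lipase, which acts on HDL phospholipids, had 5.48, 5.84 and 6.15 as its lowest, median and highest values in WT and 5.96, 6.41 and 6.55 in KO, and read 0.48 higher (SE 0.15, limma, adjusted p = 0.615). Pltp, the phospholipid transfer protein of plasma, read 0.24 higher and Abcg5, a sterol exporter into bile, 0.08 higher (limma, adjusted p = 0.915 and 0.943). Among 14 genes of apoB lipoproteins 6 read higher, and the median was -0.01, positive with equal array medians. Apob itself had a difference of -0.41 with an SE of 0.35. Among 18 genes of bile acid synthesis 10 read higher, with a median of 0.01 that turned negative after quantile normalization. Cyp7a1, the rate-limiting enzyme of bile acid synthesis, ranged from 7.88 to 10.33 in WT and from 9.50 to 10.12 in KO, with a difference of 0.53 (SE 0.33, limma, adjusted p = 0.886). The WT livers enclosed the KO livers for Cyp7a1. Of 18 hepatobiliary transporters 14 read higher, with a median of 0.05, and Slco1b2, which takes up bile acids and drugs, read 0.29 higher (limma, adjusted p = 0.803). The list median of the transporters was lowest in WT replicate 6, at -0.15 from the WT mean.

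Amino acid and zonated genes gave small positive medians. Of 31 measured genes of the urea cycle and amino acid breakdown, 27 read higher, against 50.6% of named genes, and none passed. Their median was 0.08 in females and -0.03 in males. WT replicate 6 had the lowest list median of all female livers, -0.11 from the WT mean. The other WT livers lay between -0.04 and 0.14. Prodh, proline dehydrogenase, read 0.33 higher (SE 0.09, limma, adjusted p = 0.534), and Tat, tyrosine aminotransferase, 0.29 higher (limma, adjusted p = 0.844). Of 18 pericentral genes, which are expressed around the central vein and many of which respond to Wnt signals, 16 read higher. None of them passed, and their median was 0.12 in females and -0.04 in males. WT replicate 6 again had the lowest list median, -0.08, and the other WT livers lay between -0.04 and 0.11. Lgr5, the R-spondin receptor, had 6.19, 6.35 and 7.18 in WT and 6.81, 7.04 and 7.26 in KO as its lowest, median and highest values, and read 0.48 higher in females and 0.37 higher in males (limma, adjusted p = 0.634 and 0.74). Slc1a2, a glutamate carrier of pericentral hepatocytes, read 0.27 higher (SE 0.08, limma, adjusted p = 0.615). Of 13 periportal genes, the other end of the lobule, 7 read higher, with a median of 0.03.

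Lists of drug and fuel metabolism had medians between -0.01 and 0.07 in females. Of 25 conjugation enzymes 21 read higher (17 after quantile normalization), with a median of 0.07 in females and -0.06 in males. WT replicate 6 had the lowest list median, -0.20 from the WT mean, and the other WT livers lay between -0.05 and 0.08. Sult1d1, a further sulfotransferase, read 0.36 higher (limma, adjusted p = 0.848). Sult1b1, which sulfates thyroid hormone, read 0.32 higher (limma, adjusted p = 0.735). Of 20 cytochromes P450 and other targets of the receptors CAR or PXR 13 read higher, with a median of 0.06. For fatty acid and triglyceride synthesis the median of 33 genes was 0.06; Lpin2, a phosphatidate phosphatase, read 0.31 higher and Fasn, fatty acid synthase, 0.35 higher (limma, adjusted p = 0.801 and 0.836). For fatty acid oxidation and ketogenesis the median of 29 genes was -0.01, positive with equal array medians; Pdk4, a kinase that restrains pyruvate oxidation, read 0.60 higher in females and had a difference of -0.27 in males (limma, adjusted p = 0.795 and 0.896). Glucose and glycogen metabolism had a median of 0.02 over 22 genes. None of the members of these 5 lists passed.

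Lists of plasma protein, iron, clock, cell division, immune and stress genes had medians between -0.07 and 0.14 in females. The acute phase response had a median of 0.00 in females, with 15 of 28 genes higher, and of 0.17 in males, with 27 of 28 higher. Lcn2, lipocalin 2, read 0.84 higher in females and 0.98 higher in males, and Saa2, serum amyloid A2, 0.68 and 1.36 higher, and neither passed in either sex. Of 32 genes of complement and coagulation 20 read lower, with a median of -0.01 that was positive with equal array medians; C8a, a chain of the membrane attack complex that is also on the male-biased list, had a difference of -0.26 (limma, adjusted p = 0.789). Among 26 genes of iron and haem, Tfrc, the transferrin receptor, read 0.98 higher (SE 0.29, limma, adjusted p = 0.613). WT replicates 4 and 5, at 8.13 and 8.56, lay among the KO livers for Tfrc, and the other WT livers between 6.46 and 6.85. Among fits leaving out 1 female array Tfrc passed only without WT replicate 5, its highest WT liver (limma, adjusted p = 0.0444). Of 25 clock genes 18 read higher, with a median of 0.05; Nr1d1, the clock repressor REV-ERB alpha, read 0.66 higher and Hlf, a PAR bZIP factor under clock control, 0.32 higher (limma, adjusted p = 0.836 and 0.645). Of 22 cell division genes 18 read lower, against 49.4% of named genes, with a median of -0.07. The number that read higher was 4, and 6 after quantile normalization or with equal array medians. Members such as Top2a, Bub1, Birc5 and Tyms had means within background in both genotypes. Cdc20, an activator of the anaphase-promoting complex, had a difference of -0.25 (limma, adjusted p = 0.799), and another of its probe sets read 0.11 higher. Medians were 0.05 for nuclear receptors, 0.05 for NRF2 and glutathione genes, 0.02 for ER stress, 0.01 for interferon-stimulated genes and 0.14 for the 7 genes of MHC class II presentation. Heat shock and respiratory chain genes had medians of 0.00, which turned negative after quantile normalization. None of these lists had a passing member.

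**Figure D4:**
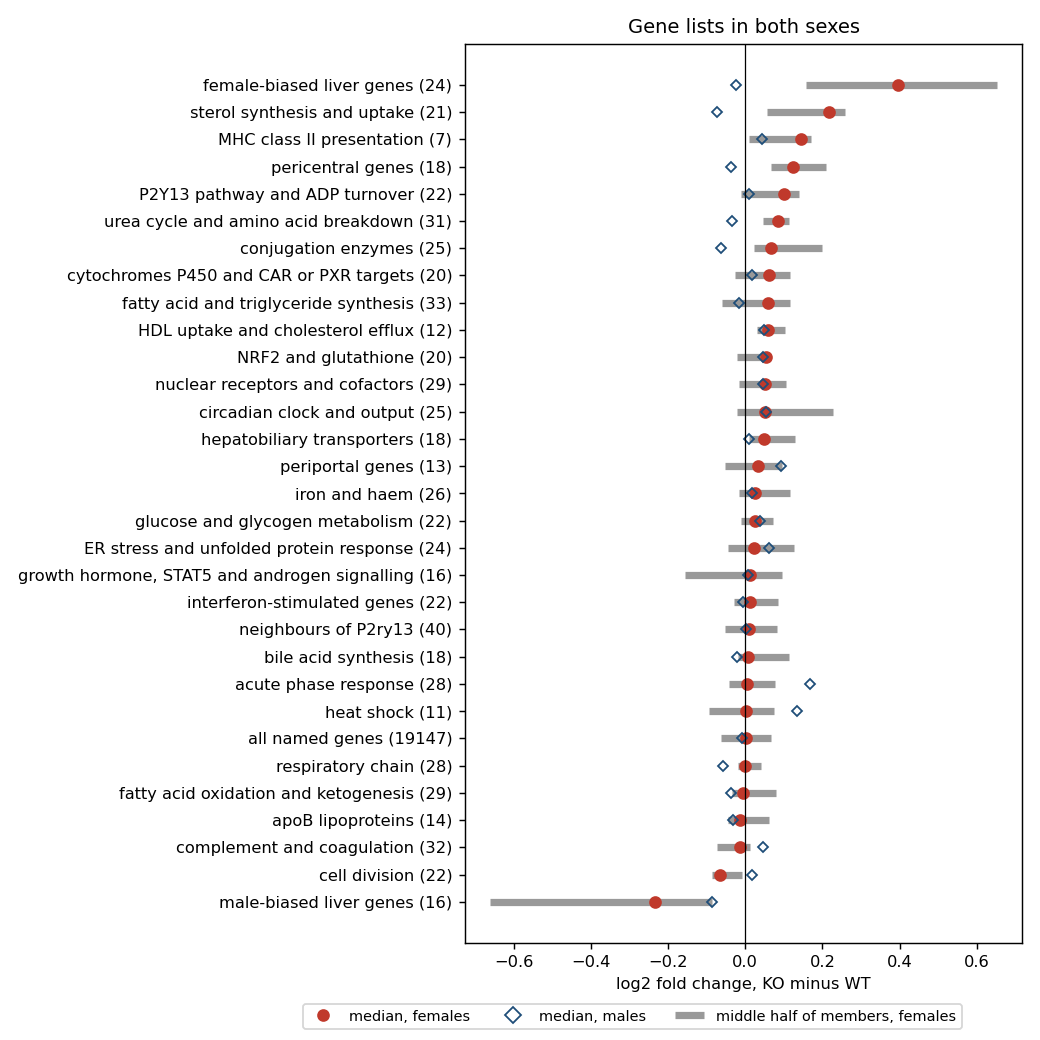
Log2 difference, KO minus WT, for 30 gene lists and all named genes (number of measured members in brackets): filled circles are medians in females, grey bars the interquartile range of the members in females, and open diamonds medians in males. Female-biased genes lie highest, at 0.40, and male-biased genes lowest, at -0.235, and the male medians of these lists are -0.02 and -0.09.

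The cell make-up of the samples was checked with 13 marker lists, of which none had a passing member. The summed linear intensity of 6 hepatocyte markers was 74890 to 78600 in female WT and 74310 to 78400 in female KO, a strong hepatocyte signal in every female liver. Such a sum is carried by its brightest members and does not show each marker. For 12 Kupffer cell and macrophage markers it was 6367 to 7772 and 6563 to 8554, for 10 sinusoidal endothelial markers 4303 to 4653 and 4065 to 4696, and for 11 stellate cell markers 5197 to 6051 and 5292 to 6696. Cholangiocyte, lymphocyte, neutrophil, erythroid, adipocyte, exocrine pancreas, gut and muscle sums also overlapped between the genotypes. Some members lay at background and so add little: Lyz2 of the macrophage list, Acta2 of the stellate list, Cftr, Cd79a, Amy2a5 and Myh4. So did 3 of 8 neutrophil and 2 of 3 adipocyte markers. Skeletal muscle markers varied most among livers, from 133 to 814 in WT and from 127 to 1521 in KO. Marco, a scavenger receptor of macrophages, had the largest difference of the 12 Kupffer cell and macrophage markers. It read 1.99-fold higher in KO (limma, adjusted p = 0.599), and WT replicate 4 lay among the KO livers. Of these 12 markers 8 read higher and 4 lower, with a median log2 difference of 0.02. The lowest log2 difference among them was -0.14, for Csf1r. The part of cell make-up in the differences above was not tested.

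On chromosome 3 itself, 15 named genes passed, 6 higher and 9 lower, and 1.25% of the probe sets placed there had KO and WT livers that did not overlap, against 0.195% on other chromosomes. In the order of the gene table of GRCm38.p6 they were Mccc1, Acad9, Jade1, P2ry13, Aadac, Sucnr1, Mme, Ppm1l, B3galnt1, Asic5, Trim2, Scnm1, Hsd3b5, Hsd3b3 and Hao2. Next to P2ry13, the list of its neighbours held 40 measured genes, with a median of 0.01. At the brightest probe set of each gene, B3galnt1 rose and Mme, Aadac and Sucnr1 fell. Ppm1l, a phosphatase of the endoplasmic reticulum that is also a neighbour, passed at 1 of its 3 probe sets (0.66); its brightest had a difference of -0.05 and the third one of 0.26 (limma, adjusted p = 0.00142, 0.98 and 0.615). Mme, the membrane peptidase neprilysin, had 7.70, 8.11 and 8.33 as its lowest, median and highest values in WT and 3.95, 4.10 and 4.36 in KO, a fall by 3.94 (SE 0.12, limma, adjusted p = 1.69e-18). Male livers gave a difference of -3.83. Aadac, an esterase of the endoplasmic reticulum, ranged from 11.75 to 11.99 in WT and from 11.16 to 11.45 in KO. B3galnt1, which extends glycolipids, lay within background in WT, at 2.93 to 3.27, and at 4.11 to 5.01 in KO. Its KO mean of 4.57 was at least 1.84-fold higher than WT, with the top of background, 3.69, standing for WT.

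Farther along, Asic5, a channel of the acid-sensing family activated by bile acids, ranged from 4.10 to 5.69 in WT and from 6.33 to 7.80 in KO and rose by 1.97 (limma, adjusted p = 0.00455). Acad9, an acyl-CoA dehydrogenase of mitochondria that also assembles complex I, fell by 0.53, and its 4 further probe sets read lower by 0.27 to 0.44 (log2 differences -0.27 to -0.44). Jade1, which directs histone acetylation by HBO1, rose by 0.84 at 1 probe set, and another had a difference of -0.12. Hsd3b3, a 3-beta-hydroxysteroid dehydrogenase close to Hsd3b5, ranged from 10.43 to 11.56 in WT and from 9.19 to 10.64 in KO, with KO replicate 5 inside the WT range, and its effect of -1.40 was like that in males, -1.39. The calls for Hsd3b3, Sucnr1, Mccc1 and Scnm1 passed in 3, 5, 4 and 2 of the 12 fits that each left out 1 female array, with adjusted p up to 0.115, 0.0998, 0.11 and 0.192 (limma). The remaining 14 of the 18 genes passed in all 12.

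**Figure D5:**
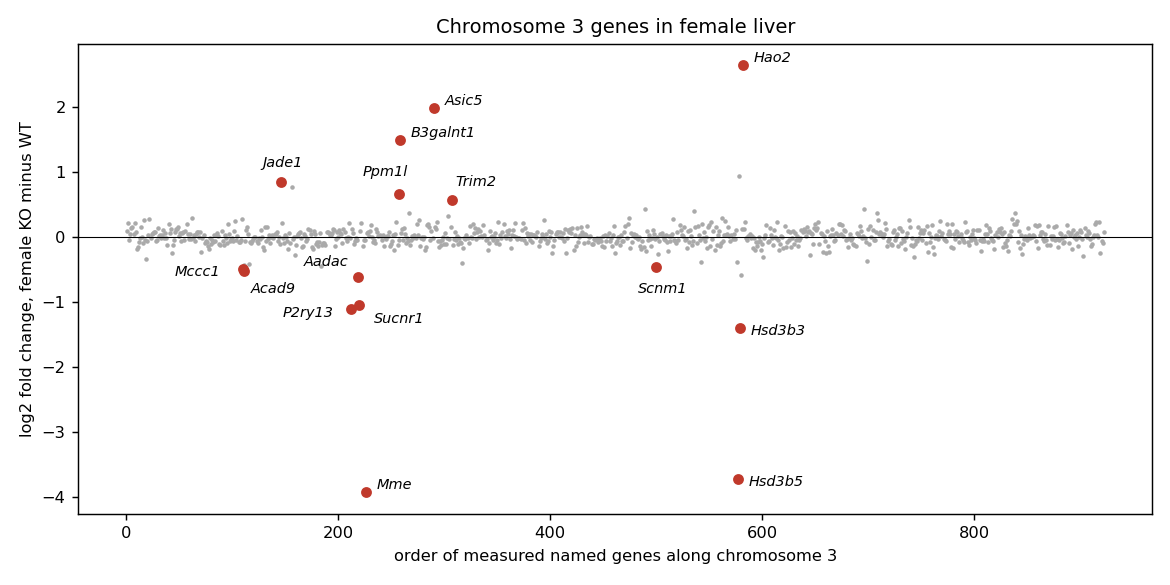
Log2 fold change, female KO minus female WT, of the 922 measured named genes of chromosome 3 in their order along it (x axis, rank); grey points show the brightest probe set of each gene, and red points, which are named, the passing probe set with the smallest p (for Ppm1l and other genes with several probe sets these can differ). Mme and Hsd3b5 lie lowest, at -3.94 and -3.73, and Hao2 highest, at 2.64.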

How the data were processed

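RNA of whole livers was amplified to biotin-labelled cRNA and hybridised, 1 array per liver. The deposited intensity values, 1 per probe set, are on a linear scale. The submitters' processing notes name RMA; the sources used here give neither its version nor its settings. RMA narrows differences of dim probe sets. Log2 was taken of the deposited values here with no further scaling, because the array medians agree closely. With limma 3.58.1 (R 4.3.3), all 23 arrays entered 1 model with a mean for each of the 4 groups, so male arrays share in the estimate of the spread. It had 19 residual degrees of freedom, and eBayes added 7.61. Contrasts were KO minus WT in females, the same in males, and their difference, each adjusted by Benjamini-Hochberg over 38385 probe sets. Errors beside differences are SEs from limma and errors beside group means are SDs.

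Names came from the platform annotation: 24478 probe sets have 1 symbol, 65 several and 13842 are unnamed here. Chromosomes came from RefSeq, GRCm38.p6, by Entrez ID for 24237. Gene lists (30 of pathways, 13 of markers) use the probe set with the highest mean of each gene; other named genes use the one with the smallest p, so a value can differ by probe set. The rule named P2ry13, up to 15 passing genes in each direction, the 20 genes off chromosome 3 with the smallest p, up to 5 members per list and the genes passing in the difference of the effects. The members and lists were chosen with earlier results of these data known. Lists are described by counts and medians, not tested. Alternatives were other scalings, filters, weights and models and leaving out each female array; leaving out KO replicates 1 and 5 together, and list members off chromosome 3, were added after seeing the data. The model was tested on simulated data. Plots used matplotlib 3.10.9 (Python 3.11.15).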

Additional observations from a re-analysis of the deposited data

Results flagged for a closer look

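The KO effect differed between females and males, by the interaction term in limma, for 4 genes. The effect in females minus that in males was 4.92 for Sult2a2, 3.50 for Sult2a1, 2.72 for Hao2 and -3.25 for Hsd3b5, on the log2 scale. Sult2a1, Sult2a2 and Hao2 lay between 2.39 and 3.25 in males of both genotypes, within or below background, so for these 3 no male effect was measurable and the differences rest on the female effect.

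Among 190 groups of 6 female livers examined (95 genes, WT and KO), 11 held a liver whose gap to the nearest other, divided by the group's range, exceeded Dixon's 95% critical value; chance gives such a gap in about 5% of groups. In KO, C6 read 7.32 in replicate 1 and 7.56 to 7.66 in the others. KO replicate 2 stood apart for 4 genes: Igfbp2 (10.98), Noct, a clock-controlled gene (8.59), Ndufb3 of respiratory complex I (9.51) and Csf1r, the macrophage growth factor receptor (8.37). Cyp7a1 was highest in KO replicate 3 (10.12). In WT, Stat5a was lowest in replicate 1 (7.23) and Lpin2 highest in replicate 5 (9.46). WT replicate 4 was highest for Eif2ak3, the ER stress kinase PERK (6.83), and for Marco (6.33). H2-DMb1, an MHC class II chaperone gene, was lowest in WT replicate 6 (3.59).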

How the results depend on the processing

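The count of 21 probe sets called in females became 12 when the tested change had to exceed 20%. It became 7 in a plain analysis of variance after adjustment, and 4 when the probe sets placed on chromosome 3 were left out. The plain analysis kept 6 named genes, all on chromosome 3. It lost Sult2a1, Sult2a2, Cyp2d9, Hsd3b5, Hao2, Acad9, Asic5, Hsd3b3, Mccc1, Scnm1, Sucnr1 and Trim2. At the thresholds of the design text, an unadjusted p under 0.05 and a change over 20%, the plain analysis of the female arrays gave 397 (1.03% of probe sets, 239 higher). Other scalings, filters and weights gave 18 to 28, female arrays alone 16, and leaving out 1 female array 16 to 29. The 4 differences between the sexes were 3 to 5 in the alternatives run, and 4 to 5 with 1 array left out. Hao2 was lost with an intensity trend and robust variance (where Cyp2d9 took its place) and with 16 added before log2; Cyp2d9 also passed with the dim filter and without KO replicate 2, 3 or 6. The 9 list memberships that passed became 3 off chromosome 3 and were 8 to 11 with 1 array left out. No sign of a called value turned in any alternative.

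With the replicate number as a block, 14 probe sets passed (7 higher, 7 lower), and Acad9, Hsd3b3, Mccc1, Scnm1 and Trim2 did not. Whether equal numbers pair the samples is not known from the sources used here. Deviations of same-numbered WT and KO livers correlated between -0.07 and 0.15, and 1 of 6 KO livers correlated best with its own number. Such correlations cannot exclude a shared litter or batch. The cause of these differences in count was not tested, except that leaving out probe sets of chromosome 3 removes most calls by construction. Genes within background, and falls toward it, give only bounds.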
